A study of Mus musculus with 6 samples.

Results

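The 8 E2F genes of the mouse, E2f1 to E2f8, were followed through the differentiation of C2C12 cells, a myoblast line that leaves the cell cycle and fuses into muscle fibre-like cells when serum is withdrawn. The members were taken by name, and the counts of their annotated transcripts were summed to the gene. All 8 passed the filter on low counts, among 15454 genes tested and 25269 genes with any count. RNA was sequenced from 6 libraries of this 1 cell line. There were 2 libraries of multinucleated C2C12 myotubes and 2 of mononucleated reserve cells, both on day 7 of differentiation in low serum and separated from each other by mild trypsin. The remaining 2 libraries were C2C12 myoblasts in growth medium, taken near confluency. The 2 libraries of each group are described as biological replicates, without saying which cultures they came from, so p-values measure the spread between these samples.

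E2F factors bind DNA at the start of genes needed for DNA synthesis and cell division, mostly as dimers with a DP protein. E2f1, E2f2 and E2f3 are known as activators of these genes, which hypophosphorylated Rb restrains until cyclin D and cyclin E kinases act in G1. E2f4 and E2f5 act mainly as repressors with the Rb relatives p107 and p130. E2f6 represses with Polycomb proteins and does not bind Rb, and the atypical E2f7 and E2f8 repress without DP partners. Exit from the cell cycle in muscle is a textbook setting for Rb and E2F control.

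Promoter sequence is shown for the members with a match to a cell cycle motif, and for both starts of E2f3, since several E2F genes are themselves known E2F targets. Windows of 300 bases (250 before to 50 after the start) came from RefSeq on GRCm38.p6, the assembly of mm10. They were searched on both strands for the E2F motif letters TTTCCCGC, TTTCGCGC, TTTGCCGC and TTTGGCGC and for the cell cycle homology region (CHR) letters TTTGAA and TTCGAA. No match overlaps another in the sequences shown. Windows were available for 6 members, namely E2f1, E2f2, E2f3, E2f6, E2f7 and E2f8. E2f4 and E2f5 had no window and were not searched. An E2F match was present in 2.26% of all 32851 windows and a CHR match in 19.2%. Matches are in capitals. The following lie before the annotated start at chr13:29986064-29986163 (E2f3 upstream start, minus strand), chr13:29984392-29984491 (E2f3 downstream start, minus strand), chr10:110745189-110745438 (E2f7, plus strand) and chr7:48881597-48881696 (E2f8, minus strand), and a short site is given for E2f2 at chr4:136172303-136172323 (plus strand).
E2f3 upstream start: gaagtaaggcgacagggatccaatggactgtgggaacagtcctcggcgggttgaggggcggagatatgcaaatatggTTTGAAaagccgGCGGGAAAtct
E2f3 downstream start: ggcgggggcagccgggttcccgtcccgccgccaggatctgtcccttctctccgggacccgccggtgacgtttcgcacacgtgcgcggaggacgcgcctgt
E2f7: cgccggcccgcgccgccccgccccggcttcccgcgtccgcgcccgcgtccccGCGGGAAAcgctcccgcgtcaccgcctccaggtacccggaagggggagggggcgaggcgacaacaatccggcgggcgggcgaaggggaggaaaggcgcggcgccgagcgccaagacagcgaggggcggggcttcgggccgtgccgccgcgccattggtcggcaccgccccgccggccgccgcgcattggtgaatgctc
E2f8: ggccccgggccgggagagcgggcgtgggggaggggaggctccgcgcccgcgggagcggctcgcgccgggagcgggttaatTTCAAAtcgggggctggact
E2f2 site: cggcatatagTTTGGCGCtaa

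The window of the upstream E2f3 start held both kinds of letters, an E2F match 11 bases and a CHR match 23 bases before the start. A window with both was found in 0.317% of all windows. The downstream E2f3 start, 1672 bases further into the gene, had neither match. E2f7 carried an E2F match 198 bases before its start. E2f8 had a CHR match 20 bases before the start of a protein-coding transcript. That E2f8 start held 6.5% and 1.2% of the gene's counts in myotubes, 3.2% and 31.7% in reserve cells, and 4.1% and 91.5% in myoblasts. The E2f8 start with most counts in myotubes and reserve cells had no window. The E2f2 site lay 39 bases after the RefSeq start and before the GENCODE start of the gene. Another E2f2 window, at the start of a minor non-coding transcript, held a CHR match 31 bases before that start. No match was found in the window of E2f6. The E2f1 window had none either, but its RefSeq start lies 294 bases inside the gene from the nearest GENCODE start. That window lies wholly inside the GENCODE gene, so the bases before the GENCODE starts of E2f1 were not searched. A match is a description of the letters and not evidence of binding.

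Library totals were 15658875 and 19344981 counts in myotubes, 19214940 and 18760145 in reserve cells, and 15795389 and 20055078 in myoblasts. The members had between 100 counts (E2f5, myotube 1) and 4216 counts (E2f2, myotube 2) in a library. Levels are given as CPM (counts per 1000000), after adjusting library sizes by TMM (the trimmed mean of M values). Mitochondrially encoded genes took 5.30% and 5.37% of counts in myotubes, 2.36% in both reserve cell libraries, and 1.89% and 1.90% in myoblasts. All 8 muscle markers (Myog, Myh3, Myh8, Acta1, Ckm, Tnnt3, Myl1, Mymk) were counted in every library, with a summed level of 25630 to 25840 CPM in myotubes, 7127 to 7245 CPM in reserve cells and 253 to 264 CPM in myoblasts. The reserve cell libraries thus held muscle transcripts. The 6 reserve cell markers (Pax7, Cd34, Notch3, Spry1, Hes1, Myf5) summed to 223 CPM in both myotube libraries, 616 to 620 CPM in reserve cells and 530 to 546 CPM in myoblasts. Notch3 carried most of the sum in reserve cells and myoblasts (57.7 and 56.8 CPM in myotubes, 342 and 345 in reserve cells, 315 and 326 in myoblasts), while Spry1 was higher in myotubes than in myoblasts (log2 fold change 3.16, edgeR adjusted p = 5.95e-09). In reserve cells over myoblasts Myf5 was lower (−1.46, edgeR adjusted p = 9.87e-06) and Pax7 did not pass (−0.15, edgeR adjusted p = 0.240). The 5 matrix genes (Col1a1, Col3a1, Fn1, Pdgfra, Postn) summed to 3352 to 3506 CPM in myotubes, 17220 to 17650 CPM in reserve cells and 9161 to 9174 CPM in myoblasts. Fn1 carried most of that sum (2747 and 2919 CPM in myotubes, 14090 and 14606 in reserve cells, 6967 and 6979 in myoblasts), while Postn was higher in myotubes than in myoblasts (log2 fold change 2.12, edgeR adjusted p = 1.65e-08). The 4 macrophage markers summed to 2.15 to 2.63 CPM in myotubes, 1.92 to 2.22 in reserve cells and 2.92 to 3.74 in myoblasts, all of it from Cd68 (7 to 52 counts a library) and Csf1r (22 to 30 counts a library). Cd68 was lower in myotubes than in myoblasts (log2 fold change −1.54, edgeR adjusted p = 0.0423). The 4 endothelial markers (Pecam1, Cdh5, Kdr, Tek) summed to 0 to 0.924 CPM in myotubes, 0.518 to 1.21 in reserve cells and 0.461 to 1.05 in myoblasts. The 4 adipocyte markers summed to 0 CPM in myotubes, 0.151 to 0.155 in reserve cells and 0.175 to 0.323 in myoblasts, all from Fabp4. Adipoq, Plin1 and Cidec of the adipocyte list and Ptprc and Adgre1 of the macrophage list had no count in any library. The part of these markers in the values below was not tested.

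In C2C12 myotubes the E2F genes split in both directions. E2f2, E2f4 and E2f6 were higher than in myoblasts, and E2f1, E2f3, E2f5, E2f7 and E2f8 were lower. All 8 members passed edgeR's quasi-likelihood test (adjusted p under 0.05), where 65.3% of all genes tested did, 32.7% higher and 32.7% lower. The activators held genes of either direction (E2f2 against E2f1 and E2f3), and so did the pocket protein-binding repressors (E2f4 against E2f5).

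**Figure D1:**
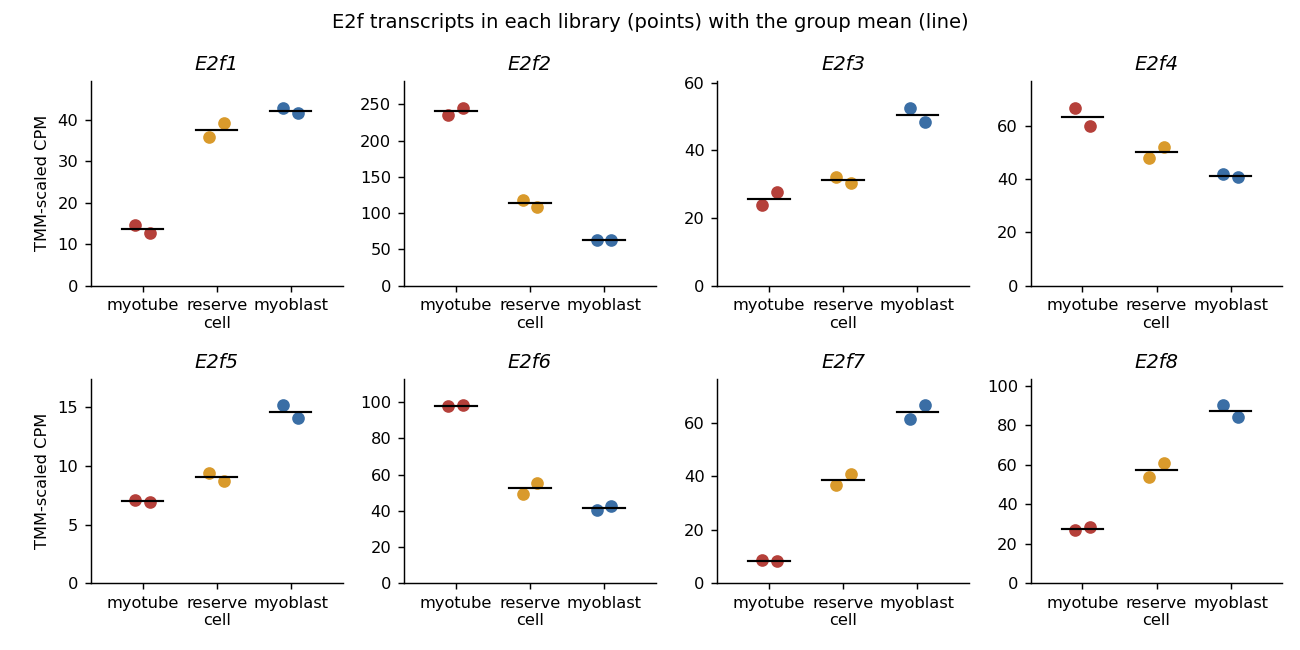
TMM-scaled CPM of the 8 E2f genes (vertical axes, from 0) in myotubes, reserve cells and myoblasts (left to right), 1 point per library and a line at the group mean of 2 libraries. In all 8 panels the reserve cell points lie between those of myotubes and myoblasts.

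Among the activators, E2f1 (chromosome 2), which drives entry into S phase and can also induce apoptosis, had 14.6 and 12.6 CPM in myotubes, 35.8 and 39.3 in reserve cells, and 42.9 and 41.6 in myoblasts. The myotube libraries lay far below the other 4, and the reserve cell libraries lay just under the myoblast ones without overlap. E2f1 was 3.10-fold lower in myotubes than in myoblasts (log2 fold change −1.63 ± 0.10 SE, edgeR adjusted p = 1.86e-06). Between reserve cells and myoblasts E2f1 did not pass the test (−0.17 ± 0.10, 95% interval −0.39 to 0.05, edgeR adjusted p = 0.186). Myotubes had less E2f1 than reserve cells (−1.46 ± 0.10, edgeR adjusted p = 6.68e-06). In bulk samples, fewer cells of a type and less RNA per cell cannot be told apart.

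E2f2 (chromosome 4), an activator of the same class, went the other way. It had 235.6 and 245.2 CPM in myotubes, 118.7 and 108.0 in reserve cells, and 62.9 and 62.7 in myoblasts. No 2 groups overlapped, and every myotube library was above every other library. E2f2 was 3.83-fold higher in myotubes than in myoblasts (95% interval 3.45 to 4.24, edgeR adjusted p = 3.34e-08) and 1.80-fold higher in reserve cells than in myoblasts (1.63 to 2.00, edgeR adjusted p = 1.29e-05). Myotubes exceeded reserve cells 2.12-fold (1.92 to 2.34, edgeR adjusted p = 1.87e-06). Among all genes tested, 90.0% had a lower fold change than E2f2 between myotubes and myoblasts. Nearly all of its counts were in 1 protein-coding transcript, with 99.9% and 99.8% of the gene's counts in myotubes and 100% and 99.8% in myoblasts.

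E2f3 (chromosome 13) had 23.8 and 27.6 CPM in myotubes, 32.2 and 30.2 in reserve cells, and 52.6 and 48.4 in myoblasts. As a whole gene it was lower in both day 7 fractions. The log2 fold change was −0.97 ± 0.10 in myotubes over myoblasts (edgeR adjusted p = 3.13e-05) and −0.69 ± 0.09 in reserve cells over myoblasts (edgeR adjusted p = 0.000445). Between myotubes and reserve cells it was −0.28 ± 0.10 (edgeR adjusted p = 0.0405). This last call was lost in 10 of 15 alternatives, and without myotube replicate 1 the value was −0.18 (edgeR adjusted p = 0.212).

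Fewer E2f3 transcripts were assigned to the upstream start site in myotubes. The upstream start gives the longer form known as E2F3a, and the downstream start, within the first intron of the other, gives E2F3b, which lacks the N-terminal part of E2F3a. The upstream start had 0 and 14 counts in myotubes, 497 and 401 counts in reserve cells, and 751 and 654 counts in myoblasts. The downstream start had 335 and 460 counts in myotubes, 141 and 182 counts in reserve cells, and 150 and 396 counts in myoblasts. Scaled for depth, the downstream start had 23.8 and 26.8 CPM in myotubes, 7.11 and 9.43 in reserve cells, and 8.75 and 18.3 in myoblasts. In myotubes E2f3 transcripts were thus assigned nearly all to the downstream start, while in reserve cells and myoblasts most were assigned to the upstream one. In levels of single starts, with p-values adjusted over 22784 start-site groups, the upstream start was lower in myotubes than in myoblasts (log2 fold change −6.42, edgeR adjusted p = 0.00842), in a comparison where 41.3% of the groups passed. The downstream start did not pass there (0.89, 95% interval −0.11 to 1.88, edgeR adjusted p = 0.132). In myotubes over reserve cells, where 29.8% of the groups passed, the upstream start was lower (−5.70, edgeR adjusted p = 0.0162) and the downstream start higher (1.63, edgeR adjusted p = 0.0347). Neither passed in reserve cells over myoblasts, with −0.72 for the upstream start (edgeR adjusted p = 0.610) and −0.74 for the downstream one (edgeR adjusted p = 0.254), where 22.5% of the groups did.

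In shares of the gene's counts, the upstream start had 0 of 335 counts in myotube 1, which allows a share of up to 0.896% when the limit is taken as 3 counts of the 335 (the upper Wilson bound is 1.13%), and 2.95% in myotube 2 (Wilson 95% interval 1.77% to 4.90%). It had 77.9% (74.5% to 80.9%) and 68.8% (64.9% to 72.4%) in reserve cells. In myoblasts it had 83.4% (80.8% to 85.6%) and 62.3% (59.3% to 65.2%). These intervals and the limit cover counting error only, and the myoblast pair lay further apart than their intervals. Usage of the upstream start, the log2 difference of its change from that of the whole gene in edgeR's diffSpliceDGE, was −5.43 in myotubes against myoblasts (adjusted p = 0.00577). The size of this value rests on the few upstream counts of myotubes: it was −4.62 without myotube replicate 1 and −11.3 without replicate 2, which leaves a library with no upstream count and so depends on the prior count. The call was kept in both. By this test, start-site usage differed in 12.8% of 4885 genes with more than 1 start site. Myotubes against reserve cells gave −5.44 (diffSpliceDGE adjusted p = 0.0112, with 5.55% of genes called), −4.63 without myotube replicate 1 and −11.3 without replicate 2. The call was lost without reserve cell replicate 1 (−5.35, adjusted p = 0.0726) or without reserve cell replicate 2 (−5.52, adjusted p = 0.0703). For reserve cells against myoblasts the value was 0.0054 (diffSpliceDGE adjusted p = 0.997, with 5.16% of genes called), and its sign turned in 3 of 10 alternatives. The test of start sites was chosen after the E2f3 transcripts had been seen.

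**Figure D2:**
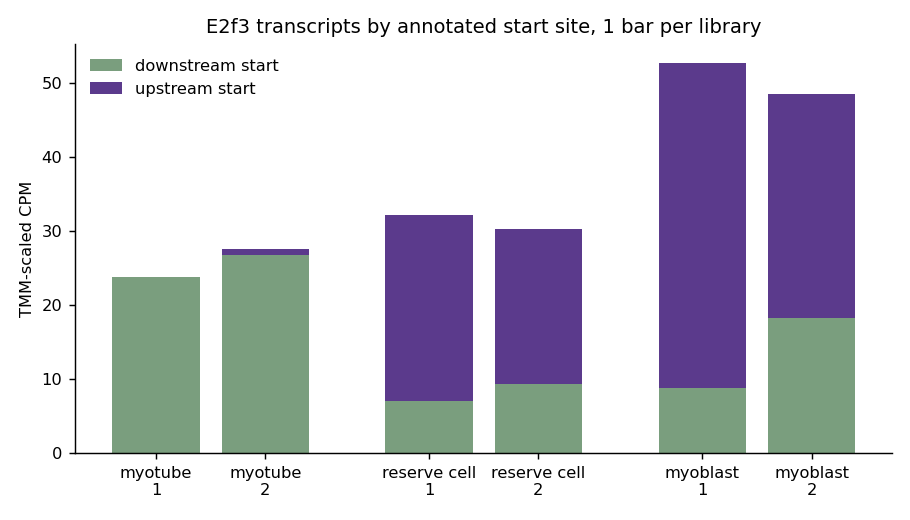
TMM-scaled CPM of E2f3 transcripts (vertical axis, from 0), stacked by annotated start site, 1 bar per library. The upstream start has 0 and 0.81 CPM in myotubes, 25.1 and 20.8 in reserve cells, and 43.8 and 30.2 in myoblasts.

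The split of counts between transcripts that share most of their exons is an estimate and was unstable elsewhere in the family. For E2f8, 2 protein-coding transcripts with different starts had 1470 and 64 counts in myoblast 1 but 142 and 1669 counts in myoblast 2. The 2 protein-coding E2f3 transcripts of the downstream start had 162 and 173 counts in myotube 1 and 440 and 19 counts in myotube 2. Sums over the gene do not depend on this split, while levels per kilobase do, through the count-weighted transcript length.

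Of the repressors that work with pocket proteins, E2f4 (chromosome 8), the main E2F of quiescent cells, rose. It had 66.8 and 60.1 CPM in myotubes, 47.9 and 52.2 in reserve cells, and 41.8 and 40.7 in myoblasts. The groups did not overlap. E2f4 was 1.54-fold higher in myotubes than in myoblasts (95% interval 1.35 to 1.76, edgeR adjusted p = 0.000197). In reserve cells it was 1.21-fold higher than in myoblasts (1.06 to 1.39, edgeR adjusted p = 0.0233), a call lost in 5 of 15 alternatives, among them DESeq2 (adjusted p = 0.0747) and each myoblast library left out (adjusted p = 0.0794 and 0.119) as well as reserve cell replicate 2 (adjusted p = 0.133). Myotubes over reserve cells gave 0.34 on the log2 scale (edgeR adjusted p = 0.00742), with 0.27 (adjusted p = 0.0597) without reserve cell replicate 1 and 0.14 (adjusted p = 0.196) on library totals in place of TMM.

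E2f5 (chromosome 3), the other p130-binding repressor, was the member with the fewest counts. It had 7.11 and 6.92 CPM in myotubes, 9.38 and 8.75 in reserve cells, and 15.2 and 14.1 in myoblasts. Both day 7 fractions were below the myoblasts. It was 2.09-fold lower in myotubes than in myoblasts (log2 fold change −1.06 ± 0.16, edgeR adjusted p = 0.000491) and 1.61-fold lower in reserve cells than in myoblasts (−0.69 ± 0.16, edgeR adjusted p = 0.00771). The difference between myotubes and reserve cells did not pass (−0.37 ± 0.16, interval −0.75 to 0.01, edgeR adjusted p = 0.0893). The last bases of E2f5 overlap 1810022K09Rik on the opposite strand, which had 454 to 599 counts a library, and whether the counting used strand is not given in the sources used here.

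E2f6 (chromosome 12), the Polycomb-linked repressor, rose in both day 7 fractions, and more in myotubes. It had 97.8 and 98.2 CPM in myotubes, 49.6 and 55.2 in reserve cells, and 40.4 and 42.9 in myoblasts. The myotube libraries were nearly equal and stood clear of the other 4. E2f6 was 2.35-fold higher in myotubes than in myoblasts (95% interval 2.07 to 2.67, edgeR adjusted p = 2.13e-06) and 1.87-fold higher in myotubes than in reserve cells (1.65 to 2.12, edgeR adjusted p = 2.38e-05). Reserve cells were 1.26-fold above myoblasts (edgeR adjusted p = 0.0100), a call that was lost without myoblast replicate 1 (adjusted p = 0.0671) or reserve cell replicate 2 (adjusted p = 0.0668). The main protein-coding transcript of E2f6 held 72.4% and 76.6% of the gene's counts in myotubes, 78.9% and 81.2% in reserve cells, and 77.8% and 75.9% in myoblasts, and a transcript annotated as a target of nonsense-mediated decay held 9.48% to 21.3%.

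The atypical repressors E2f7 and E2f8, which in cycling cells shut off E2f1 and its targets, both fell. E2f7 (chromosome 10) had 8.75 and 8.32 CPM in myotubes, 36.8 and 40.7 in reserve cells, and 61.3 and 66.5 in myoblasts. E2f8 (chromosome 7) had 27.2 and 28.3 CPM in myotubes, 54.1 and 60.8 in reserve cells, and 90.1 and 84.1 in myoblasts. In both genes the 3 groups lay apart in the same order. E2f7 was 7.50-fold lower in myotubes than in myoblasts (log2 fold change −2.91 ± 0.10, edgeR adjusted p = 3.56e-08), and 4.71% of all genes tested had a lower fold change. E2f8 was 3.14-fold lower in myotubes than in myoblasts (−1.65 ± 0.09, edgeR adjusted p = 5.31e-07). In reserve cells over myoblasts the values were −0.72 ± 0.08 for E2f7 (edgeR adjusted p = 0.000184) and −0.60 ± 0.08 for E2f8 (edgeR adjusted p = 0.000464). Myotubes over reserve cells gave −2.18 ± 0.10 for E2f7 (edgeR adjusted p = 4.60e-07) and −1.05 ± 0.09 for E2f8 (edgeR adjusted p = 1.60e-05). Genes overlapping them on the opposite strand had at most 7 counts (1700020G17Rik, E2f7) and 64 counts (Gm2788, E2f8).

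In reserve cells against myoblasts, 7 of 8 members were called, with E2f2, E2f4 and E2f6 higher and E2f3, E2f5, E2f7 and E2f8 lower. Among all genes tested 46.2% were called in that comparison, 24.4% higher and 21.8% lower. Between myotubes and reserve cells 7 of 8 were called, with E2f2, E2f4 and E2f6 higher and E2f1, E2f3, E2f7 and E2f8 lower, where 55.7% of all genes were called, 27.2% higher and 28.5% lower. The comparisons share their libraries, so a like direction in 2 of them is not separate evidence. The member that did not pass was E2f1 for reserve cells against myoblasts and E2f5 for myotubes against reserve cells.

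**Figure D3:**
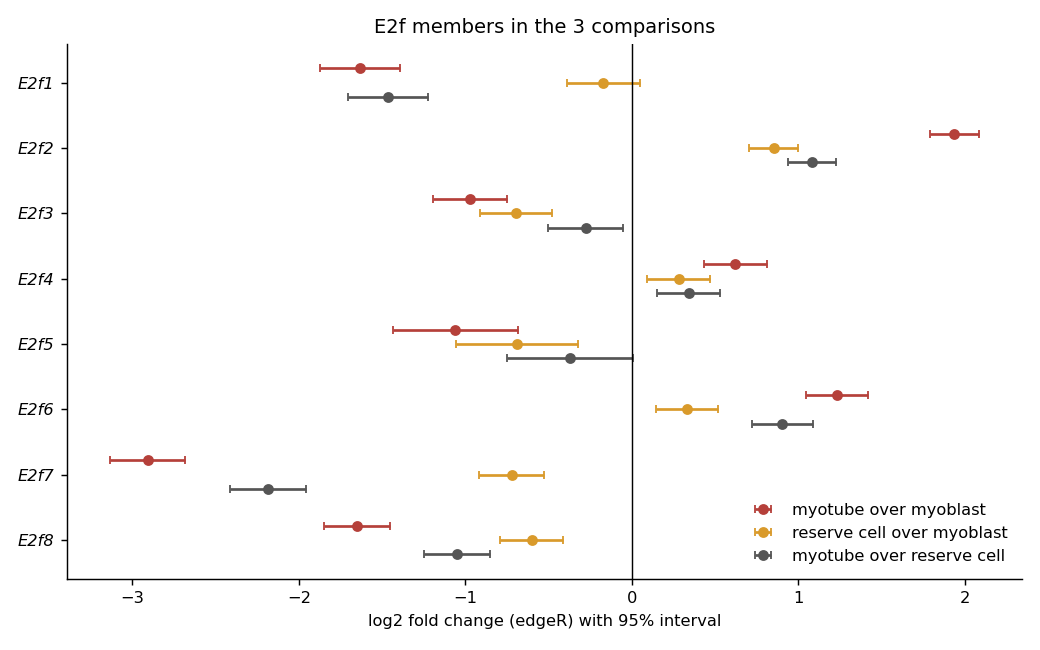
Log2 fold changes of the 8 E2f genes (horizontal axis) from edgeR with 95% intervals, for myotubes over myoblasts, reserve cells over myoblasts and myotubes over reserve cells (top to bottom within a gene). The interval spans 0 for E2f1 in reserve cells over myoblasts (−0.39 to 0.05) and for E2f5 in myotubes over reserve cells (−0.75 to 0.01).

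For all 8 members the reserve cell libraries lay between those of myotubes and myoblasts, as they did for 38.4% of all genes tested. How far they lay towards myotubes differed by member. On the CPM scale, with the myoblast mean at 0% and the myotube mean at 100%, reserve cells stood at 16.5% for E2f1, 19.1% for E2f6 and 28.5% for E2f2. They stood at 39.7% for E2f4, 45.4% for E2f7 and 49.99% for E2f8. E2f5 and E2f3 were nearest to their myotube levels, at 73.1% and 77.9%. The 8 muscle markers stood at 18.4% to 39.4% on the same scale, with a median of 27.6%, and their part in the reserve cell values was not tested.

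Per kilobase of transcript, so that genes can be set beside each other, the leading member differed between the groups. In myotubes E2f2 was first (50.8 ± 1.44 CPM per kb, SD, n = 2), followed by E2f6 (40.5 ± 0.12) and E2f4 (32.1 ± 2.40). The other 5 were at 7.70 CPM per kb or less, and E2f3 and E2f1 overlapped. In reserve cells E2f4 (25.3 ± 1.54 CPM per kb) and E2f2 (24.0 ± 1.601) overlapped at the top, with E2f6 (21.7 ± 1.64) and E2f8 (15.9 ± 1.31) next. In myoblasts E2f8 was first (24.2 ± 1.18 CPM per kb), then E2f4 (20.9 ± 0.40), E2f6 (17.2 ± 0.75) and E2f1 (15.4 ± 0.35), while E2f2 and E2f7 overlapped at 13.3 ± 0.03 and 13.1 ± 0.75.

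The summed level of the family was 147.6 and 146.6 CPM per kb in myotubes, 117.3 and 122.7 CPM per kb in reserve cells, and 123.6 and 121.5 CPM per kb in myoblasts. Within the summed level E2f2 took 33.8% and 35.4% in myotubes, 21.4% and 18.6% in reserve cells, and 10.8% and 10.9% in myoblasts. E2f7 and E2f8 together took 6.32% and 6.52% in myotubes, 19.2% and 20.5% in reserve cells, and 30.4% in both myoblast libraries. The share of the activators E2f1 to E2f3 as a class differed less, with 40.7% and 42.4% in myotubes, 38.1% and 35.3% in reserve cells, and 32.1% and 31.6% in myoblasts. Inside the class E2f1 made up 3.62% and 3.14% of the family in myotubes, 11.1% and 11.7% in reserve cells, and 12.7% and 12.5% in myoblasts.

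**Figure D4:**
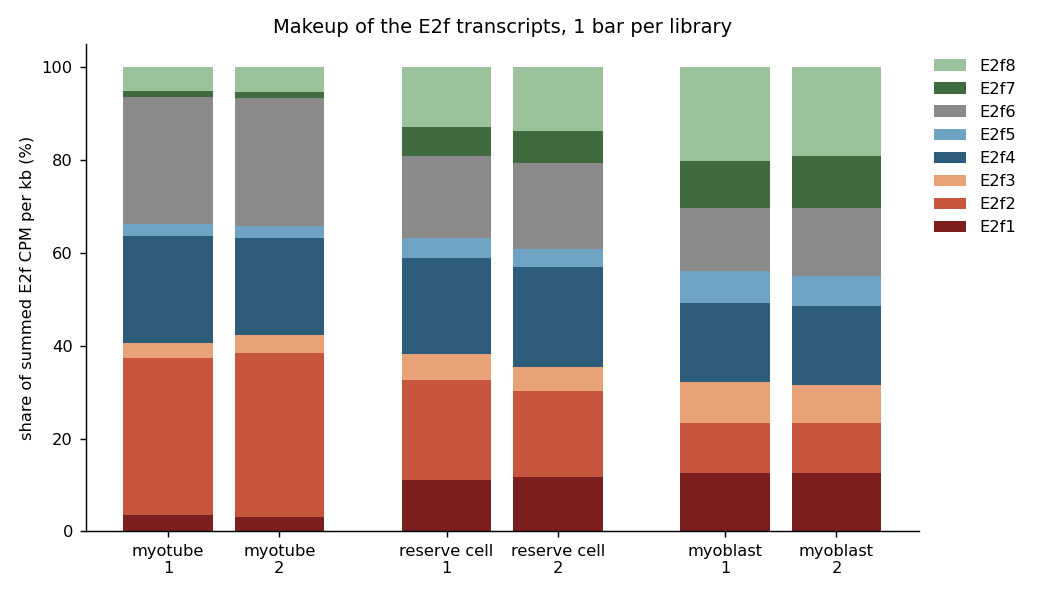
Share of each E2f gene in the summed CPM per kb of the family (vertical axis, percent), 1 bar per library. E2f2 takes 33.8% and 35.4% of the myotube bars and 10.8% and 10.9% of the myoblast bars, and E2f7 with E2f8 6.32% and 6.52% of the myotube bars and 30.4% of each myoblast bar.

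Among the proteins that E2F factors work with, the pocket proteins moved apart. Rb1, which restrains the activators, had 217.5 and 229.8 CPM in myotubes, 113.7 and 112.4 in reserve cells, and 62.1 and 55.2 in myoblasts. It rose by 1.93 ± 0.07 on the log2 scale in myotubes over myoblasts (edgeR adjusted p = 5.99e-08) and by 0.95 ± 0.07 in reserve cells over myoblasts (edgeR adjusted p = 1.22e-05). Rbl1, which encodes p107, had 12.9 and 12.1 CPM in myotubes, 31.8 and 39.0 in reserve cells, and 57.9 and 55.0 in myoblasts, and was lower in myotubes than in myoblasts (−2.17 ± 0.12, edgeR adjusted p = 5.83e-07). Rbl2, which encodes p130, the pocket protein of quiescent cells, was highest in reserve cells. It had 95.1 and 112.6 CPM in myotubes, 151.0 and 148.8 in reserve cells, and 95.7 and 104.1 in myoblasts. Rbl2 rose in reserve cells over myoblasts (0.58 ± 0.09, edgeR adjusted p = 0.000724) and was lower in myotubes than in reserve cells (−0.53 ± 0.09, edgeR adjusted p = 0.000954), while myotubes and myoblasts gave 0.06 (interval −0.14 to 0.26, edgeR adjusted p = 0.596).

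Among the DP partners, Tfdp1 was lower in myotubes than in myoblasts (log2 fold change −0.51, edgeR adjusted p = 4.06e-05) and Tfdp2 was higher (0.32, edgeR adjusted p = 0.0135), a call lost on library totals (0.04, adjusted p = 0.716). In reserve cells over myoblasts Tfdp1 was at −0.22 (edgeR adjusted p = 0.00954) and Tfdp2 at 0.31 (edgeR adjusted p = 0.01999), which did not pass in DESeq2 (0.30, adjusted p = 0.0578). Of the 5 subunits of the MuvB core, which joins E2f4 and p130 in the DREAM repressor, Lin37 (1.16) and Rbbp4 (0.47) were higher and Lin9 (−1.43) and Lin54 (−0.81) lower in myotubes over myoblasts, and Lin52 did not pass. Both activators that MuvB binds in cycling cells fell in myotubes over myoblasts, with log2 fold changes of −3.28 for Mybl2 (edgeR adjusted p = 4.66e-07) and −3.86 for Foxm1 (edgeR adjusted p = 6.55e-09). In reserve cells over myoblasts the values were −0.96 for Mybl2 and −1.38 for Foxm1. Of the 10 listed subunits of the Polycomb complex that holds E2f6, 2 rose (Pcgf6 and Mga), 3 fell (Max, Cbx3 and Rybp) and 5 did not pass in myotubes over myoblasts, with a list median of −0.18. In myotubes over myoblasts 65.3% of all genes tested were called, 32.7% higher and 32.7% lower, so these subunits were not called more often than genes in general. On library totals neither Pcgf6 (0.19, adjusted p = 0.280) nor Mga passed, and Mga turned to −0.07 (adjusted p = 0.403). E2f6 itself was at 1.23 in that comparison, outside the range of those subunits (−1.25 to 0.47).

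Of the 6 cyclins and kinases that act on Rb in G1, Ccnd3 rose in myotubes over myoblasts (log2 fold change 1.82, edgeR adjusted p = 2.14e-09). Ccnd1, Ccnd2, Cdk4 and Cdk6 fell, with −4.58 for Ccnd1, and Cdk2 did not pass (0.02). All 4 listed subunits of the ubiquitin ligases that act on E2F proteins were lower in myotubes than in myoblasts, with −2.57 for Skp2, −3.34 for Ccnf, −0.67 for Fzr1 and −4.64 for Cdc20. Of all genes tested, 32.7% were called lower and 32.7% higher in myotubes over myoblasts. In myotubes over reserve cells Fzr1, an activator of the anaphase-promoting complex in G1 and quiescent cells, was higher (0.25, edgeR adjusted p = 0.0218) and the other 3 were lower, but on library totals Fzr1 was at 0.04 (adjusted p = 0.666). There 27.2% of all genes tested were called higher and 28.5% lower under TMM.

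The genes that E2F factors are known to drive fell together. All 30 listed targets of the G1/S transition were lower in myotubes than in myoblasts, with a median log2 fold change of −2.52. In that comparison the median of all genes tested was 0.004, and 32.7% of them were called lower. Uhrf1, which maintains DNA methylation, averaged 11.7 CPM over the myotube libraries, 60.8 over the reserve cell libraries and 170.2 over the myoblast libraries, and fell by 3.86 on the log2 scale in myotubes over myoblasts (edgeR adjusted p = 3.43e-09). Rrm2, the ribonucleotide reductase subunit, averaged 85.4 CPM over the myotube libraries, 255.6 over the reserve cell libraries and 332.7 over the myoblast libraries. In reserve cells over myoblasts 25 of the 30 were lower and 5 did not pass (Ccne2, Cdc25a, Gins1, Pcna and Rrm1, named after their values were seen), with a median of −0.77. Of all genes tested, 21.8% were called lower there. Between myotubes and reserve cells 29 were lower, with a median of −1.72, and Cdc25a did not pass. That comparison called 28.5% of all genes tested lower.

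All 12 listed G2/M genes were lower in every comparison, with medians of −3.96 in myotubes over myoblasts, −1.62 in reserve cells over myoblasts and −2.26 in myotubes over reserve cells. The shares of all genes tested that were called lower were 32.7%, 21.8% and 28.5% in the same order. Top2a, the topoisomerase of dividing cells, averaged 51.0 CPM over the myotube libraries, 260.0 over the reserve cell libraries and 571.5 over the myoblast libraries. Of the promoters of these targets, the E2F letters occurred in 12 of the 24 G1/S genes with a window, beside 2.60% of all genes, and the CHR letters in 6 of the 9 G2/M genes with a window, beside 21.7% of all genes. Both lists were drawn up as known targets, so these shares describe the lists and are not separate evidence of E2F control. The apoptosis genes linked to E2f1 did not all follow it. Of 7 tested, 5 were lower in myotubes than in myoblasts, among them Apaf1 (−2.33), and Bbc3 (1.45) and Pmaip1 (1.03), which encode the BH3 proteins Puma and Noxa, were higher. In that comparison 32.7% of all genes tested were called lower and 32.7% higher.

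**Figure D5:**
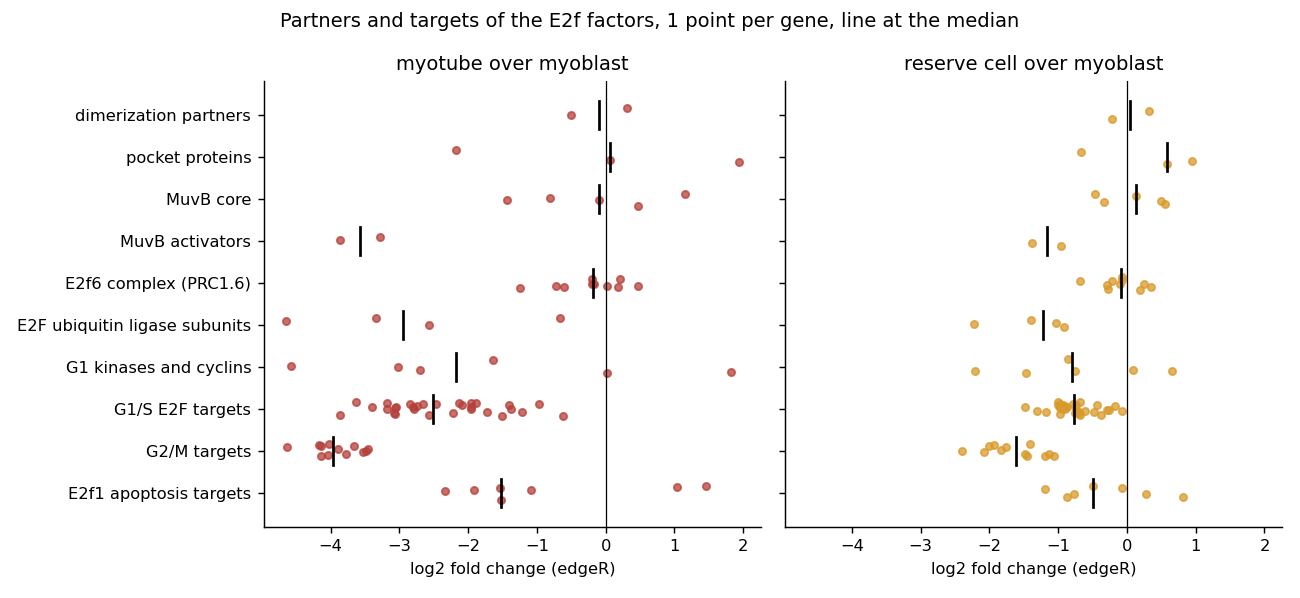
Log2 fold changes from edgeR (horizontal axis) of the partners, regulators and targets of E2F factors, 1 point per gene with a line at the list median, for myotubes over myoblasts (left) and reserve cells over myoblasts (right). All 30 G1/S and all 12 G2/M points lie below 0 in both panels, and the medians are −2.52 and −3.96 at left and −0.77 and −1.62 at right.

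Genes whose profile over the 6 libraries was nearest to a member were found by the root mean square difference of mean-centred log2 CPM. The search covered the genes tested that have an official symbol, without predicted-gene, clone and Rik names. For E2f1 they were Tcf7l2, Piga and Scpep1 (0.057 to 0.060), and for E2f2 Tmx4, Sike1 and Gss (0.044 to 0.046). E2f3 was nearest to Etv1, Rangap1 and Ptges3-ps, E2f4 to Parp6, Usp4 and Dnaja3, and E2f5 to Prelid1, Lmnb2 and Gnb1. E2f6 was nearest to Rfk, Ndufs1 and Mkln1, E2f7 to Col16a1, Pcdh19 and Pgf, and E2f8 to Vrk1, Sipa1l3 and Abl1. For the 8 members the nearest differences ran between 0.027 and 0.073, and none of these genes was a listed G1/S or G2/M target.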

How the data were processed

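The authors sequenced mRNA of 6 C2C12 libraries (Illumina NovaSeq, paired ends), aligned reads to mm10 with HISAT2, processed them with SAMtools and quantified transcripts with StringTie. They deposited transcript counts per library as whole numbers, which are estimates for transcripts that share exons. For program versions, annotation release and strandedness, values were not given in the sources used here. A deposited table of the whole series held the same libraries and was not used. The series states day 7 for both myotubes and reserve cells, while the study's methods give a shorter time in differentiation medium.

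Counts were summed to genes through GENCODE M21 transcript identifiers (141374 of 142604 transcripts matched). The rest, 0.375% to 0.872% of counts, were kept under their own identifiers. They are counted among the genes with a count, and among the genes tested where they passed the filter. They stayed out of the start-site groups. All 6 libraries entered 1 fit in edgeR 4.0.16 (R 4.3.3) with TMM factors, filterByExpr at a minimum count of 10, glmQLFit and glmQLFTest. P-values were adjusted by Benjamini-Hochberg over all 15454 genes, with a threshold of 0.05. CPM per kb used the count-weighted mean transcript length. Start sites within 200 bases were merged, and their usage was tested per gene with diffSpliceDGE. The procedure was tested on simulated data. Alternatives were DESeq2 1.42.0, other scalings and filters, 4 libraries alone, protein-coding transcripts, a replicate block, no mitochondrial genes and each library left out. The named genes were the 8 members, all genes of short lists, of the long target lists the 4 with the smallest adjusted p in a comparison, and the 3 nearest profiles of each member. Members and lists were chosen with earlier results of these data known. No replicates were identical, and all groups' replicates differed beyond counting noise.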

Additional observations from a re-analysis of the deposited data

How the results depend on the processing

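The 24 fold changes of the members were recomputed under 15 alternatives each. Of these 360 values 340 kept their direction and their side of the threshold, 19 kept the direction and lost the call, 1 gained a call and 0 changed direction, and 19 of the 24 results held throughout. The members called were 8 in every alternative for myotubes over myoblasts, 5 to 7 for reserve cells over myoblasts and 5 to 7 for myotubes over reserve cells. Library totals in place of TMM moved the median of all genes to −0.273 in myotubes over myoblasts, −0.0573 in reserve cells over myoblasts and −0.213 in myotubes over reserve cells. On library totals E2f5 passed between myotubes and reserve cells (−0.58, adjusted p = 0.0169), E2f4 did not pass there (0.14, adjusted p = 0.196), nor in reserve cells over myoblasts (0.21, adjusted p = 0.0719). The direction of every member stayed. E2f3 in myotubes over reserve cells ran between −0.48 and −0.18 (adjusted p 0.00273 to 0.212).

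Whether libraries with the same replicate number came from 1 culture is not given. Deviations from the group means correlated across genes at 0.0026 (myotubes and myoblasts), 0.0389 (reserve cells and myoblasts) and −0.0284 (myotubes and reserve cells). These values show no shared deviation by replicate number, but cannot tell which cultures the libraries came from. With the replicate block, edgeR called 9926 genes in myotubes over myoblasts, 6958 in reserve cells over myoblasts and 8383 in myotubes over reserve cells (10099, 7141 and 8602 without it), and E2f3 in myotubes over reserve cells had −0.28 (adjusted p = 0.0576). The usage of the upstream E2f3 start in reserve cells against myoblasts was −0.0038 (adjusted p = 0.988) with the block, and −0.181 to 0.239 with a library left out. In myotubes against myoblasts it ran between −11.3 and −4.62 and kept its call. DESeq2 was not run for start sites. With 2 libraries a group, an arm reduced to 1 library is assumed to vary like the others, and the member with the fewest counts, E2f5 with 100 counts in myotube 1, had the widest interval.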
